A study of Saccharomyces cerevisiae with 15 samples.

Results

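The transcriptome of budding yeast overexpressing Psd1 was compared with that of cells overexpressing only the presequence of another mitochondrial protein, Mss116. Both groups were chosen by their labels, and they made up 6 of the 15 RNA-seq libraries and 2 of the 5 groups of the series, with 3 biological replicates each. All strains were of the W303 background. In PSD1_OE cells the complete PSD1 gene was under a galactose-inducible GAL promoter, on a multicopy plasmid by the paper's methods. In MSS116_1-53_OE cells the same kind of promoter drove residues 1 to 53 of Mss116 fused to mCherry, a fluorescent protein, from a multicopy plasmid, so the control cells were induced and loaded with a reporter of their own. Both constructs carried the URA3 marker, both groups kept PDR3, and the labels give every group an empty multicopy plasmid as well. Cultures grew in 2% raffinose and were induced with 1% galactose for 4 h. The other groups were PSD1_OE_pdr3_KO (Psd1 without PDR3), MTSMGE1_OE (the Mge1 presequence fused to mCherry) and MTSMGE1_OE_pdr3_KO. None of the 15 libraries is labelled as uninduced, so a transcript raised by Psd1 and one lowered by the control construct cannot be told apart.

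Psd1 is the phosphatidylserine decarboxylase of the inner mitochondrial membrane, where it makes phosphatidylethanolamine. It is synthesised in the cytosol with an N-terminal presequence, the signal that the import machinery reads before the matrix protease removes it. Mss116 is an RNA helicase of the matrix that also has a presequence. The paper counts Psd1 among proteins with a bipartite signal and uses its overexpression to impair mitochondrial protein import. It uses the Mss116 presequence as a control. When precursors accumulate outside mitochondria, yeast is known to mount several transcriptional programmes. Pdr3 raises drug pumps, which its relative Pdr1 also controls, and Cis1, an adaptor that helps to clear stalled precursors from the mitochondrial surface. Hsf1 raises cytosolic chaperones, Rpn4 raises proteasome genes, and nuclear genes for oxidative phosphorylation can be turned down.

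The libraries held 10472819 to 15953662 counted reads in PSD1_OE and 12574668 to 14503782 in MSS116_1-53_OE. Levels below are CPM, the counts of a gene scaled to a common library total with TMM factors, and fold changes are PSD1_OE over MSS116_1-53_OE on the log2 scale. The PSD1 transcript stood at 15330, 17110 and 16850 CPM in PSD1_OE replicates 1, 2 and 3, and at 244, 262 and 184 CPM in the control. MSS116 stood at 550, 505 and 573 CPM in PSD1_OE and at 6469, 7357 and 7683 CPM in the control, so both genes matched the labels in all 6 libraries. Since the constructs carry their sequences, neither gene was tested. Transcripts of 6 a-specific mating genes summed to 1165 to 1399 CPM in PSD1_OE and 1259 to 1532 CPM in the control, and those of 4 alpha-specific genes to 71.2 to 100.4 and 75.4 to 92.6 CPM. MSS116_1-53_OE replicate 2 stood apart from its group. Its counts differed from those of replicates 1 and 3 with a chi-square of 72.6 and 128 per degree of freedom, against 24.3 between replicates 1 and 3. Among the control libraries the summed general stress transcripts were highest in it, at 6752 CPM against 3527 and 2048 CPM, and the summed cytosolic ribosomal protein transcripts were lowest. The ribosomal protein sum was lowest in replicate 2 of every other group too, as in PSD1_OE at 80350 CPM against 82830 and 98460 CPM. The cytosolic chaperones summed to 11900, 12160 and 9522 CPM in control replicates 1, 2 and 3.

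Of 6166 genes tested, 81 were called higher in PSD1_OE and 14 lower, where a call needed an edgeR adjusted p of 0.05 or less and a change of at least 2-fold. These are 1.31% and 0.227% of the genes tested. The 81 were led by genes of the pleiotropic drug resistance (PDR) network, followed by genes of purine and one-carbon metabolism, cytosolic and mitochondrial chaperones and NADPH-dependent reductases. The 14 held genes for lactate, acetate and fatty acid use. The median change was 2.85-fold among the 81 and 2.30-fold among the 14. All 18 genes that changed 4-fold or more, and the 5 at 8-fold or more, were higher. The highest control library lay below the lowest PSD1_OE library for each of the 81, and the reverse held for each of the 14. With so few libraries the call itself nearly requires this, so it adds no support to the calls. The same share over all genes tested was not counted. With the adjusted p alone, 259 genes (4.2%) were higher and 117 (1.9%) lower.

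**Figure D1:**
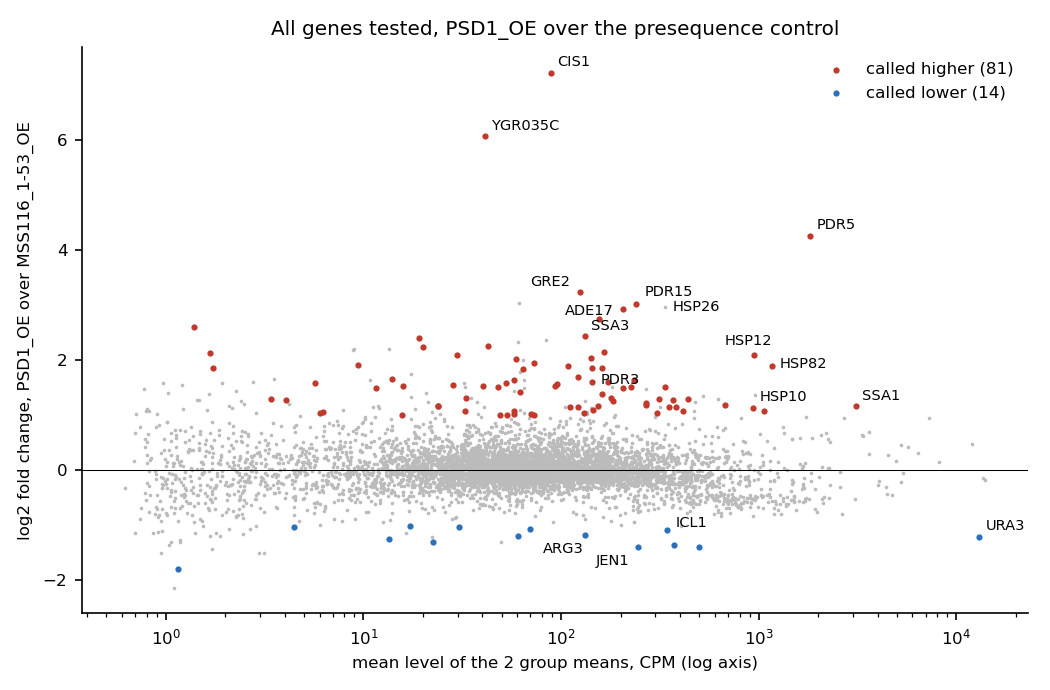
Log2 fold change of each tested gene (y axis) against its mean level in CPM on a log scale (x axis), with the 81 genes called higher and the 14 called lower in colour and the rest in grey. CIS1, YGR035C and PDR5 lie highest, at 7.23, 6.08 and 4.27, and no gene called lower reaches a 4-fold change.

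The calls varied with the libraries included. Without MSS116_1-53_OE replicate 2, 209 genes were called higher and 28 lower, and these included 77 of the 81 and 11 of the 14. Leaving out MSS116_1-53_OE replicate 1 or 3 kept 38 or 50 of the 81, and leaving out PSD1_OE replicate 1, 2 or 3 kept 34, 29 or 46. Of the 14, MSS116_1-53_OE replicates 1 and 3 kept 3 and 10 when left out, and PSD1_OE replicates 1, 2 and 3 kept 5, 2 and 4. All 81 and all 14 kept their direction in each of these fits. By the adjusted p alone, 881 genes were higher without MSS116_1-53_OE replicate 2, and 63 and 131 without replicates 1 and 3, against 62, 43 and 83 without PSD1_OE replicates 1, 2 and 3. In the same order 620, 22, 67, 23, 4 and 27 genes were lower. The list counts below from the fit without MSS116_1-53_OE replicate 2 stand against 881 higher and 620 lower of the 6198 genes tested there. Calls held in all 6 fits for 28 higher genes and 1 lower gene. The 28 were CIS1, YGR035C, PDR5, PDR15, LAF1, ICT1, RSB1, PDR3, SNQ2, PDR16 and YOR1 of the PDR network, LAC1 and SCS7 of sphingolipid synthesis, ADE17, ADE1, GCV1, GCV2, GCV3, MTD1 and SHM2 of purine and one-carbon metabolism, and NCA3, ARI1, ATG40, DSE4, IMA3, IMA4, THI7 and HSP10.

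The largest changes were in targets of Pdr1 and Pdr3, zinc cluster activators of the PDR network. Of 18 targets listed, 12 were called higher and IPT1 passed the adjusted p below 2-fold, with a median log2 change of 1.56 against 0.01 over all genes tested. CIS1 was at 177, 187 and 167 CPM in PSD1_OE replicates 1, 2 and 3 and at 1.3, 1.6 and 0.72 CPM in the control. It was close to undetected in each control library and plainly expressed in each PSD1_OE library, a difference of about 150-fold (log2 7.23, SE 0.22, adjusted p = 1.08e-05). YGR035C, a gene of unknown function, stood at 67.4, 87.9 and 88.1 CPM against 1.2, 1.3 and 1.1 CPM (log2 6.08, SE 0.18). PDR5, the chief drug efflux pump of the plasma membrane, rose from 181, 194 and 169 CPM to 3195, 3532 and 3632 CPM, or 19.2-fold (log2 4.27, SE 0.12). Within each group these 3 genes varied far less than they differed between the groups.

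Many of the responding genes carry the site that Pdr1 and Pdr3 bind, TCCGNGGA. Within 500 bases upstream of the start codon, on either strand, it occurred in 18 of the 75 genes called higher that have an annotated start (24.0%), in 0 of 11 called lower, and in 168 of all 5790 tested (2.90%). Of the 18 listed targets, 14 held it. A match is a description of the sequence and not evidence of binding. Printed below are the sites of the 11 genes with a match that rose most, to show which letters vary within and around the motif. They come from the RefSeq sequence of build R64, are written 5′ to 3′ on the strand of the gene, and have the match in capitals. A match to the reverse complement reads TCCNCGGA.
CIS1 (chrXII:822899-822928, minus strand): atccgcctattTCCGCGGAatcaatagggc
YGR035C, nearer site (chrVII:557720-557749, minus strand): taagaccctttTCCACGGAtaatcagcgga
YGR035C, farther site (chrVII:557822-557851, minus strand): gggccgattgtTCCACGGAgggaaagaatc
PDR5, nearest site (chrXV:619516-619545, plus strand): agagaaatgtcTCCGCGGAactcttctacg
PDR5, middle site (chrXV:619454-619483, plus strand): ggactcgtgatTCCGTGGAaaggtcagatc
PDR5, farthest site (chrXV:619340-619367, plus strand): ccctctcttTCCGCGGAatcgctcatgc
GRE2 (chrXV:43532-43561, plus strand): gaagtagatctTCCGTGGAaaaaaaggaaa
PDR15 (chrIV:1278820-1278849, plus strand): cgcatgctcgtTCCGCGGAgagtctcgagc
PDR3, nearer site (chrII:217268-217297, plus strand): cgctcggacttTCCGCGGAataataaatga
PDR3, farther site (chrII:217235-217264, plus strand): ctgcccttgttTCCGCGGAgctgcctcctc
YHR140W (chrVIII:380378-380407, plus strand): atttgacaagaTCCGCGGAttagagaagtc
ICT1 (chrXII:341096-341125, minus strand): acgggtttagtTCCGTGGAgcagatgtgtt
BDH2 (chrI:33043-33072, plus strand): ctgaaatccctTCCGCGGAagtttcttagt
LAC1 (chrXI:428970-428999, minus strand): aagttgctagaTCCGCGGAaccattttcgt
RTS3 (chrVII:809756-809785, minus strand): ttccatgcgttTCCACGGAaatccgaggtt

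PDR5 held 3 matches, at 313, 375 and 491 bases from the start codon, and YGR035C and PDR3 held 2 each. Among the genes called higher, the 18 with a match had a median log2 change of 1.72 and the 57 without one 1.50. Over all 168 tested genes with a match the median was 0.12, and 27 of them were higher and 3 lower by the adjusted p. Matches also lay upstream of called genes outside the target list, among them LAC1, RTS3, MIG2, BDH2, IMA5, YPL088W and YHR140W. The other motifs searched, on both strands of the same windows, were AGGGG (Msn2 and Msn4), in 45.3% of the genes called higher and 34.4% of all, GAANNTTC (Hsf1), in 22.7% and 19.2%, GGTGGCAAA (Rpn4), in 2.67% and 1.69%, CATGTG (Ino2 and Ino4), in 5.33% and 13.1%, and TGACTC (Gcn4), in 14.7% and 12.9%. Among the 11 called lower, CATGTG occurred in 4 and TGACTC in 5.

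The remaining pumps, enzymes and the regulator itself rose less. PDR15, an ABC transporter like PDR5, stood at 438, 439 and 400 CPM in PSD1_OE and at 50.7, 64.1 and 45.0 CPM in the control (log2 3.02, SE 0.15, adjusted p = 2.06e-04). GRE2, a methylglyoxal reductase, stood at 250, 241 and 183 CPM against 28.4, 33.2 and 10.7 CPM (log2 3.24, SE 0.40, adjusted p = 0.00803). Its values were the most scattered of the PDR genes, and its call was lost without PSD1_OE replicate 2, at an adjusted p of 0.0521. PDR3 itself stood at 207, 219 and 223 CPM against 76.1, 73.7 and 66.2 CPM (log2 1.60, SE 0.08), whereas PDR1 differed by 0.06 (SE 0.10, adjusted p = 0.751). LAF1 (log2 2.75), ICT1, a lysophosphatidic acid acyltransferase (1.86), RSB1, which acts in the export of sphingoid bases (1.64), the ABC transporters SNQ2 (1.51) and YOR1 (1.15), and PDR16, a phosphatidylinositol transporter (1.31), were called as well. The other 5 listed targets did not pass the test. These were YLL056C (0.50), the hexose transporter genes HXT9 (0.36) and HXT11 (-0.06), the polyamine exporter TPO1 (0.17) and the ABC transporter PDR10, which stood at 43.1, 45.5 and 39.4 CPM against 45.6, 47.5 and 36.5 CPM. The count past the adjusted p was 11 to 15 of the 18 over the fits with 1 library left out.

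**Figure D2:**
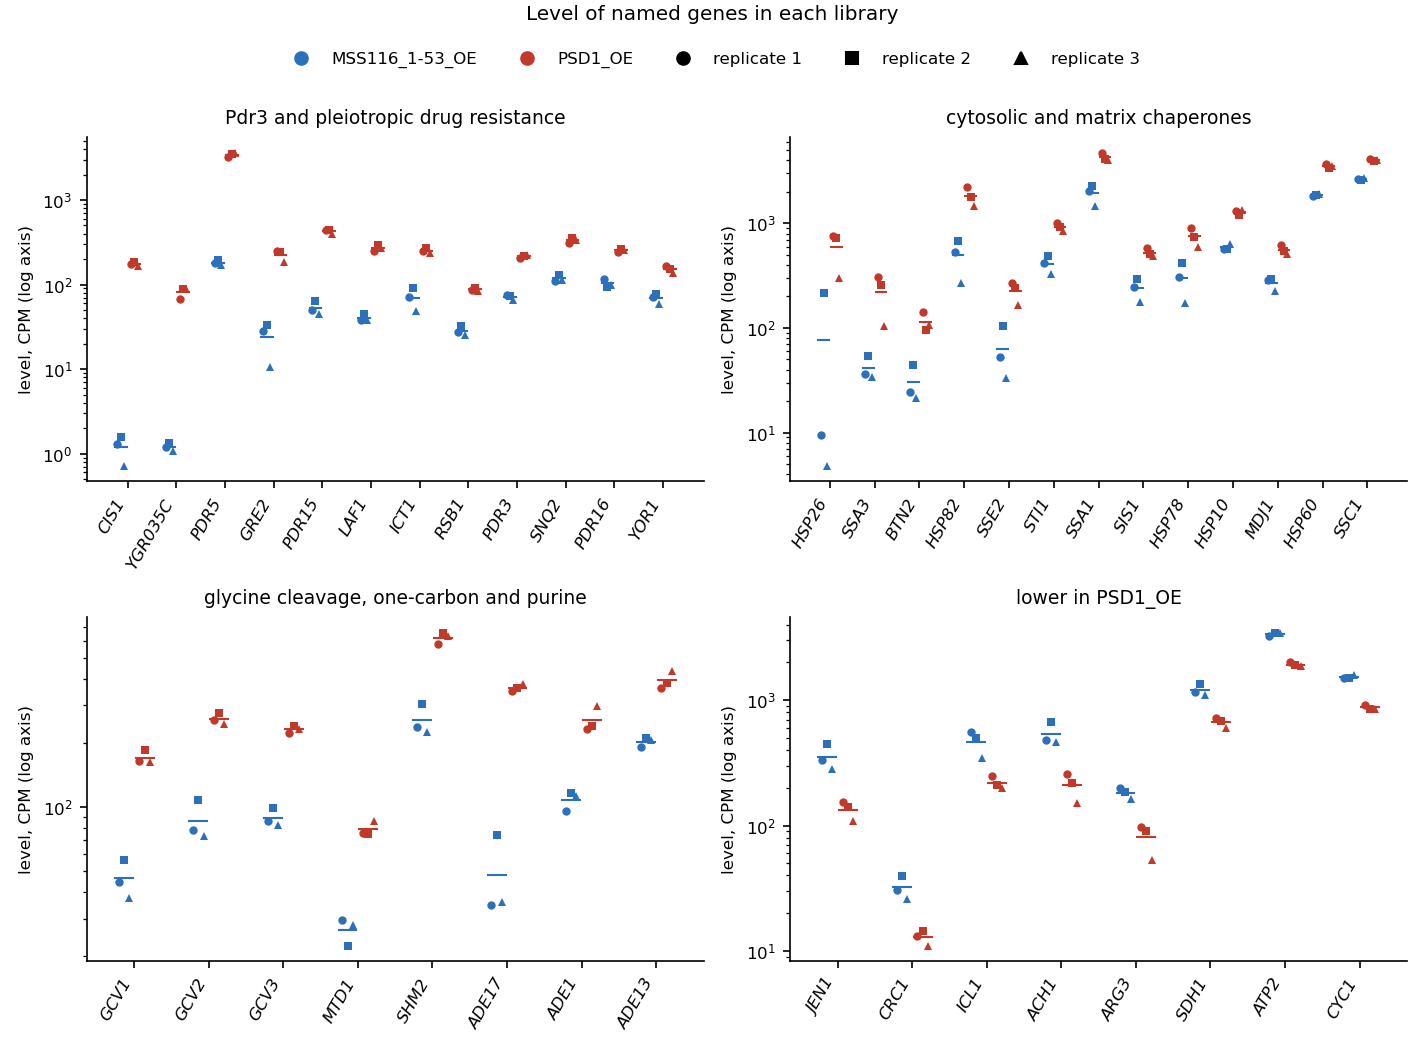
Level of selected genes in each of the 6 libraries, in CPM on a log axis, with circles, squares and triangles for replicates 1, 2 and 3 and a bar for the group mean. CIS1 and PDR5 in PSD1_OE stand clear of all 3 control libraries, whereas HSP82 (1478 to 2224 against 271 to 686 CPM) shows a wider spread and ATP2 (1864 to 2003 against 3264 to 3462 CPM) lies lower in PSD1_OE.

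A few sphingolipid genes rose beside the pumps. Of 23 tested genes of sphingolipid and fatty acid synthesis, 5 rose, 8 had negative values and the median was 0.07. None fell by edgeR's test, against 3 lower at an unadjusted p of 0.05 and 2 lower by DESeq2. LAC1, a ceramide synthase subunit, stood at 131, 143 and 155 CPM against 49.6, 48.3 and 48.4 CPM (log2 1.57, SE 0.09, adjusted p = 3.69e-04). SCS7, the fatty acid alpha-hydroxylase of ceramide, stood at 417, 472 and 445 CPM against 166, 209 and 171 CPM (1.30, SE 0.12). The groups were well separated in both. IPT1, which makes the most complex inositol sphingolipid (0.68), LIP1, the ceramide synthase regulatory subunit (0.58), and OLE1, the delta-9 desaturase (0.58), rose by less than 2-fold. Leaving out PSD1_OE replicate 2 left 2 of the 23 past the adjusted p, leaving out PSD1_OE replicate 1 or 3 or MSS116_1-53_OE replicate 1 or 3 left 3, and without MSS116_1-53_OE replicate 2 there were 8 higher and 3 lower. Of 33 phospholipid genes, the list that covers the pathway of Psd1's own product, 2 rose and 0 fell by edgeR, against 4 lower at an unadjusted p of 0.05 and 2 lower by DESeq2. The pair was MDM35 (0.71), which partners the Ups lipid transfer proteins, and TAZ1 (0.48), the cardiolipin transacylase, and 1 passed in each left-out fit except that without MSS116_1-53_OE replicate 2, which gave 3 higher and 1 lower. ERG1, the squalene epoxidase, passed (0.74) with all 6 libraries, the one gene of 25 in ergosterol synthesis to do so, against 5 by DESeq2. The edgeR counts of phospholipid and ergosterol genes that rose were near the share over all genes tested, 4.2%. The ergosterol count was 0 without PSD1_OE replicate 2 or 3 or MSS116_1-53_OE replicate 1, with 4 higher at an unadjusted p of 0.05, and 4 and 2 without MSS116_1-53_OE replicates 2 and 3.

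Cytosolic chaperones formed the second group. All 22 listed heat shock chaperone genes had a positive log2 change, with a median of 0.92, 12 rose by the adjusted p and 7 were called. HSP82, the inducible Hsp90, stood at 2224, 1786 and 1478 CPM against 529, 686 and 271 CPM (log2 1.90, SE 0.34, adjusted p = 0.0228). SSA1, a constitutive Hsp70, stood at 4744, 4116 and 4004 CPM against 2052, 2296 and 1457 CPM (1.16, SE 0.18, adjusted p = 0.0151). The groups did not overlap in either gene, yet in both the control library with the highest value was replicate 2. SSA3, a stress-inducible Hsp70, rose by 2.44, BTN2, a sequestrase for misfolded proteins, by 1.95, the Hsp110 gene SSE2 by 1.86, the Hsp90 co-chaperone gene STI1 by 1.19 and the Hsp40 gene SIS1 by 1.15 on the log2 scale. HSP26, a small heat shock protein, ranged from 300 to 750 CPM in PSD1_OE and stood at 9.5, 216 and 4.8 CPM in the control (2.97, SE 1.33, adjusted p = 0.225). HSF1, the regulator, differed by 0.04 (SE 0.10). SSA1 and SSA2, and HSP82 and HSC82, are near-identical pairs, so reads may have been split between them.

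The chaperone counts depended on the libraries of both groups, as the counts over all genes did. The number of the 22 past the adjusted p was 21 without MSS116_1-53_OE replicate 2, 6 without replicate 3 and 0 without replicate 1. It was 0 without PSD1_OE replicate 1 or 2 and 3 without replicate 3, and in each fit that gave 0, 17 were higher at an unadjusted p of 0.05. DESeq2 gave 18 with all libraries. HSP82 lost its call without MSS116_1-53_OE replicate 1 or any one PSD1_OE library (adjusted p of at most 0.106). Calls held in 3 of the 6 fits for STI1, in 2 for SSA3 and BTN2, and in 1 for SSA1, SSE2 and SIS1. The median of the 22 stayed between 0.70 and 1.07 in the 6 fits. General stress genes, targets of Msn2 and Msn4, moved with the same library. Of 26, SPI1, a cell wall protein gene (2.10), and HSP12, a membrane-associated stress protein gene (2.09), were called. The SPI1 call held in 1 of the 6 fits and the HSP12 call in 2. Of the 26, 18 passed without MSS116_1-53_OE replicate 2 and 1 without replicate 3. Without MSS116_1-53_OE replicate 1 or any one PSD1_OE library 0 passed, with 4 to 7 higher at an unadjusted p of 0.05. The 26 summed to 8952, 9407 and 6429 CPM in PSD1_OE and to 3527, 6752 and 2048 CPM in the control, where replicate 2 overlapped the PSD1_OE range. HSP12 stood at 1691, 1635 and 1276 CPM against 493, 470 and 132 CPM. The part of this library in these results was not tested beyond leaving it out.

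Within the matrix, the chaperonin and Hsp70 systems rose while their regulators and proteases mostly did not pass. HSP10, the co-chaperonin, stood at 1305, 1193 and 1347 CPM against 570, 567 and 629 CPM (log2 1.14, SE 0.10, adjusted p = 0.00374). HSP60, its partner, stood at 3712, 3415 and 3518 CPM against 1820, 1868 and 1908 CPM (0.94, SE 0.10). Both were steady within each group, the Mss116 replicate 2 library included. MDJ1, the Hsp40 of the matrix (1.08), and SSC1, its Hsp70 (0.62), rose too, which made 4 of 17 in the list, and 2 to 5 with 1 library left out. HSP78, the disaggregase, was at 1.35 (adjusted p = 0.0567) and MGE1, the nucleotide exchange factor of Ssc1, at 0.20 (adjusted p = 0.317). The 17 had a median of 0.12.

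Import, extraction and proteasome genes showed few changes. Of 37 import genes, with all 6 libraries, TIM8, a small chaperone of the intermembrane space (0.63), and MIA40, the oxidoreductase that folds proteins there (0.62), rose, and the median was 0.08. This count was near the share of all genes tested that rose, 4.2%. DESeq2 gave 5 higher and 1 lower. The import count was 6 higher and 1 lower without MSS116_1-53_OE replicate 2, where 881 and 620 of all 6198 genes tested passed. It was 1 higher without MSS116_1-53_OE replicate 3. It was 0 without replicate 1 or any one PSD1_OE library, with 5 or 6 higher at an unadjusted p of 0.05. CIS1 was the only one to pass among 12 genes for extracting proteins from the mitochondrial surface, whose median was 0.07. RPN4, the proteasome gene activator, stood at 173, 160 and 170 CPM against 86.6, 101.8 and 84.6 CPM (log2 0.89, SE 0.10, adjusted p = 0.00490). The 3 RPN4 values of PSD1_OE were all above the control. With all 6 libraries none of the 33 proteasome subunit genes beside it passed by edgeR or DESeq2, with 1 at an unadjusted p of 0.05, and the list, RPN4 included, had a median of 0.01. Without MSS116_1-53_OE replicate 2 the list gave 2 past the adjusted p.

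Nuclear genes for oxidative phosphorylation moved down together by less than 2-fold. Of 41 listed, 31 fell, none rose by edgeR (2 were higher at an unadjusted p of 0.05 and 1 by DESeq2), 38 had a negative value and the median was -0.59. The 31 came from succinate dehydrogenase, the bc1 complex, cytochrome c oxidase and the ATP synthase, and from cytochrome c. ATP2, the beta subunit of the ATP synthase, stood at 2003, 1901 and 1864 CPM against 3264, 3420 and 3462 CPM (log2 -0.80, SE 0.10, adjusted p = 0.00803). CYC1, the main cytochrome c, stood at 912, 857 and 855 CPM against 1498, 1500 and 1582 CPM (-0.79, SE 0.10). SDH1, the flavoprotein of succinate dehydrogenase, showed the largest fall of the list (-0.84), and COX4 (-0.78), CYT1 (-0.69), COR1 (-0.68) and RIP1 (-0.58) fell as well. The 3 members with positive values were NDE2 (1.23, adjusted p = 0.201), COX5B (0.69, adjusted p = 0.117) and CYC7 (0.43), and the latter pair are the isoforms used at low oxygen. The number past the adjusted p was 35 without MSS116_1-53_OE replicate 2, 25 without replicate 3 and 8 without replicate 1, and 9, 0 and 10 without PSD1_OE replicates 1, 2 and 3. At an unadjusted p of 0.05, 37 were lower in the fit that gave 0, and the median lay between -0.67 and -0.57 in all 6 fits.

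Factors that assemble these complexes moved mostly the other way. The list of 43 assembly factors, like the carrier, Mia40, purine, one-carbon, nitrogen and daughter cell lists below, was chosen after the values were seen, so its counts are a description. Of the 43, 22 rose and 2 fell, and the median was 0.50 against -0.59 for the subunits. SDH5, which attaches flavin to Sdh1, stood at 156, 146 and 136 CPM against 76.3, 83.0 and 68.9 CPM (log2 0.96, SE 0.10, adjusted p = 0.00490). SDH5 was therefore higher in all PSD1_OE libraries, in which the transcript of its client SDH1 was lower. SDH7 (0.94), PET117 (0.84), CBP4, a factor of the bc1 complex (0.82), COA4 (0.79) and CMC1 (0.76) rose, and ATP10 (-0.75) and COX19 (-0.62) fell. The number that rose was 30 and 15 without MSS116_1-53_OE replicates 2 and 3, 4 without replicate 1, and 5, 3 and 7 without PSD1_OE replicates 1, 2 and 3, with a median of 0.46 to 0.53. The 43 transcripts summed to 5079, 4998 and 5166 CPM against 3804, 3842 and 3867 CPM, and the 41 subunits to 18250, 17500 and 16410 CPM against 26820, 28050 and 27350 CPM. The 41 summed to 20390 to 21730 CPM in MTSMGE1_OE and 19400 to 20240 CPM in MTSMGE1_OE_pdr3_KO, between PSD1_OE and the control. The control was thus the highest group of the series for these subunits.

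**Figure D3:**
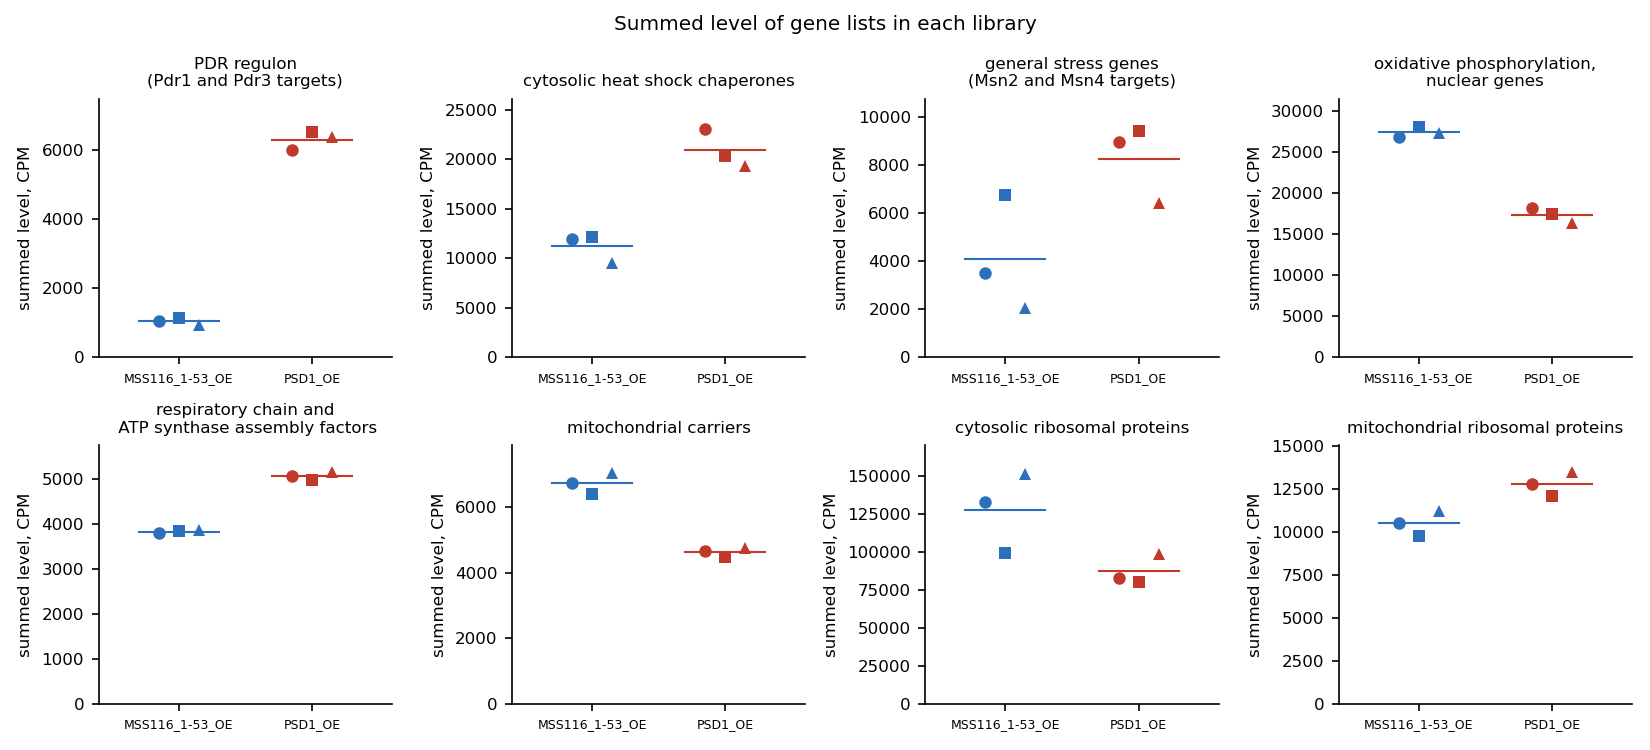
Summed level of selected gene lists in each of the 6 libraries, in CPM on axes from 0, with circles, squares and triangles for replicates 1, 2 and 3 and a line for each group mean. The oxidative phosphorylation subunits lie between 16410 and 18250 CPM in PSD1_OE and between 26820 and 28050 CPM in the control, and their assembly factors lie in the opposite order.

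Other mitochondrial lists differed in direction. Of 30 metabolite carriers of the inner membrane, which have no presequence as a rule, 7 fell and CTP1, the citrate carrier, rose (0.71). PET9, the main ADP/ATP carrier, stood at 1498, 1386 and 1460 CPM against 2457, 2356 and 2647 CPM (log2 -0.77, SE 0.10, adjusted p = 0.0100), and GGC1 (-0.76) and MIR1, the phosphate carrier (-0.58), fell too. Without MSS116_1-53_OE replicates 1, 2 and 3 the carriers that fell numbered 2, 12 and 5, and without PSD1_OE replicates 1, 2 and 3 they numbered 0, 0 and 3. Of 20 small proteins oxidised by Mia40, 9 rose and 3 fell, and the fallers COX12 and QCR6 are complex subunits. COX19, the other, is an assembly factor already counted above. The transcripts of the 20 summed to 3168, 3130 and 3239 CPM in PSD1_OE and to 3233, 3263 and 3284 CPM in the control, so their sum did not rise. The Mia40 substrates that rose numbered 13 and 5 without MSS116_1-53_OE replicates 2 and 3, and 1 without replicate 1 or any one PSD1_OE library. Of 67 mitochondrial ribosomal protein genes, 14 rose and none fell by edgeR or DESeq2, 65 had positive values and the median was 0.31. RSM19 (0.75) and MRPS16 (0.67) rose most among those named. The count of mitochondrial ribosomal genes past the adjusted p was 27 without MSS116_1-53_OE replicate 2 but 1 and 7 without replicates 1 and 3, and 2, 1 and 2 without PSD1_OE replicates 1, 2 and 3. MEF2, a mitochondrial translation factor, was called lower (-1.07). None of the 8 genes of the mitochondrial genome passed the filter on low counts. Without it 5 could be tested, and 0 passed by edgeR or DESeq2 or at an unadjusted p of 0.05.

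Cytosolic ribosomal protein genes had lower values almost throughout, but few passed the main test. Of 138, 136 had a negative log2 change and the median was -0.51. RPS22B (-0.82) and RPL41A (-0.61) passed by edgeR, whereas 90 were lower by DESeq2. Most were also lower by the adjusted p with the replicate number as a block, as the last section gives. The transcripts of the 138 summed to 82830, 80350 and 98460 CPM in PSD1_OE and to 132500, 99300 and 150900 CPM in the control. The gap between the groups was thus small against MSS116_1-53_OE replicate 2, and replicate 2 had the lowest sum in every group of the series. Without MSS116_1-53_OE replicate 2, 133 passed, and without any other single library 0 passed, with 43 to 125 lower at an unadjusted p of 0.05. With all 6 libraries none of 52 ribosome biogenesis genes passed by edgeR or DESeq2 or at an unadjusted p of 0.05, and the median was -0.12. Without MSS116_1-53_OE replicate 2, 11 of them were lower by the adjusted p and the median was -0.35.

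**Figure D4:**
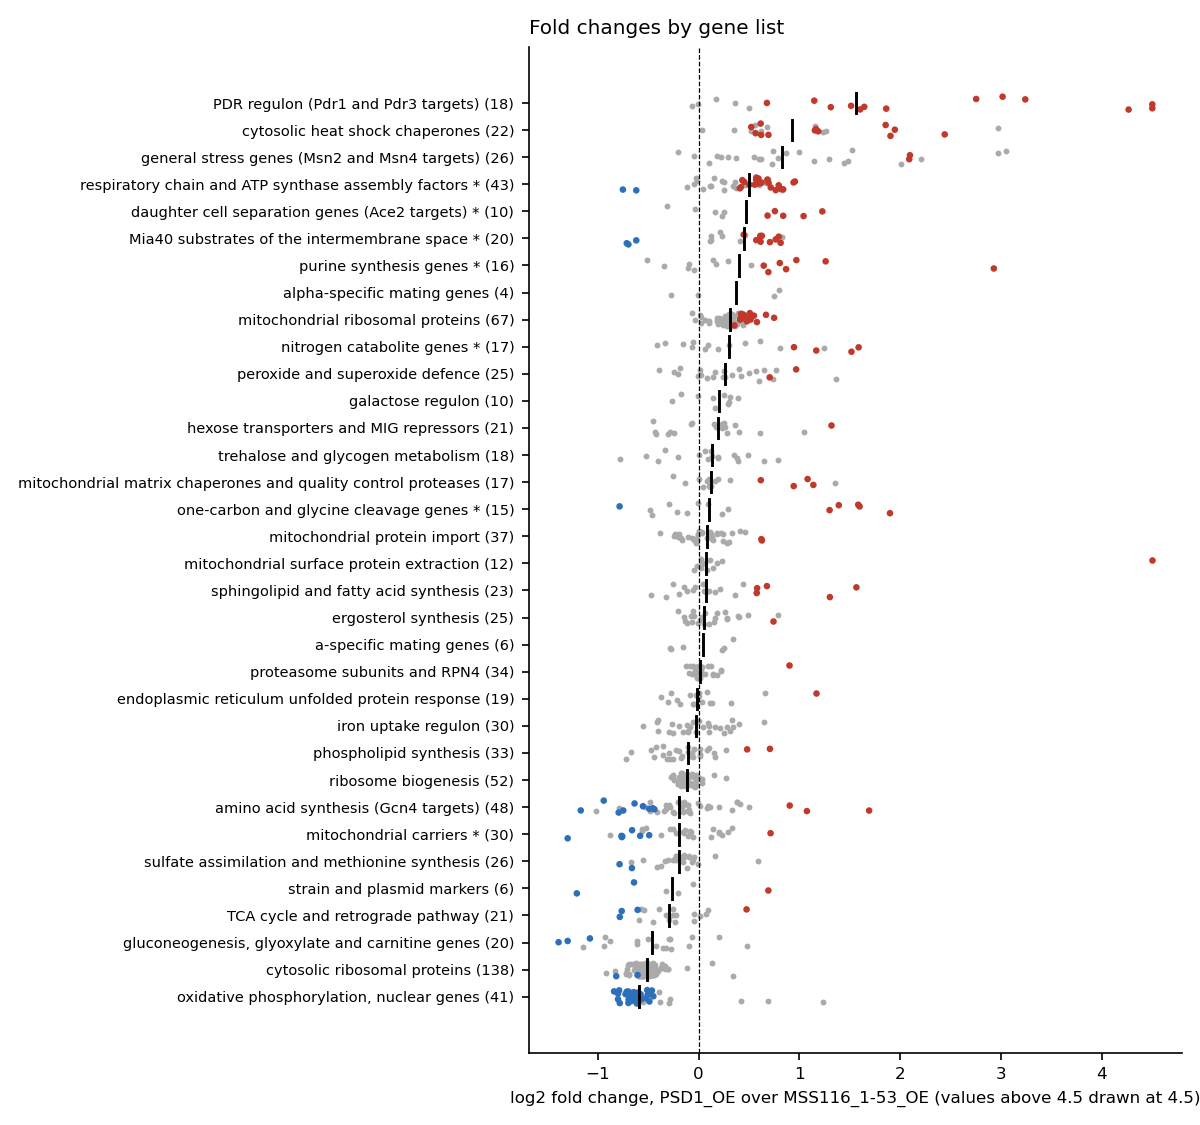
Log2 fold change of each member of the gene lists (points) with the list median (bar), where coloured points passed the adjusted p, an asterisk marks lists chosen after the values were seen and values beyond the axis are drawn at its edge. The PDR list (median 1.56) and the cytosolic chaperones (0.92) lie highest, and oxidative phosphorylation (-0.59) and cytosolic ribosomal proteins (-0.51) lowest.

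Carbon metabolism genes for non-fermentable substrates were the clearest group among the genes called lower. Of 20 genes of gluconeogenesis, the glyoxylate cycle and carnitine transport, 3 were called lower, 18 had negative values and the median was -0.46. JEN1, the lactate and pyruvate permease, stood at 154, 139 and 109 CPM against 335, 446 and 283 CPM (log2 -1.39, SE 0.20, adjusted p = 0.0131). Its groups did not overlap, though its call was lost without PSD1_OE replicate 1 or 2 or MSS116_1-53_OE replicate 1, with an adjusted p of at most 0.0695 in those fits. CRC1, the carnitine carrier (-1.30), and ICL1, the isocitrate lyase of the glyoxylate cycle (-1.08), fell, as did ACH1, an acetyl-CoA hydrolase (-1.35), and FAT3, a gene of fatty acid uptake (-1.04). With 1 library left out, the CRC1, ICL1 and ACH1 calls each held in 2 of the 6 fits and that of FAT3 in 1. In the list of 20, the number that fell was 7 and 5 without MSS116_1-53_OE replicates 2 and 3, 1 without PSD1_OE replicate 3, and 0 without MSS116_1-53_OE replicate 1 or PSD1_OE replicate 1 or 2, where 8 to 11 were lower at an unadjusted p of 0.05. Of 21 genes of the TCA cycle and its retrograde control, MDH1 (-0.78), FUM1 (-0.76) and KGD2 (-0.60) fell and RTG3, a retrograde activator, rose (0.48, adjusted p = 0.0479). RTG3 did not pass with RLE size factors, with total library sizes or with no filter on low counts. By DESeq2, 8 of the 21 were lower. Without MSS116_1-53_OE replicate 2, 5 were lower and RTG3 passed, and without any other single library none of the 21 passed, with 7 to 10 lower at an unadjusted p of 0.05. MIG2, a repressor of glucose-repressed genes, was called higher at 46.7, 50.3 and 43.5 CPM against 18.4, 25.3 and 13.6 CPM (1.31), and its call held in 2 of the 6 fits. With all 6 libraries no gene of the galactose regulon passed by edgeR, 4 being higher and 1 lower at an unadjusted p of 0.05 and 2 and 1 by DESeq2. In the fit without MSS116_1-53_OE replicate 2, 3 of the 10 were higher.

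Some one-carbon and purine genes were among the calls with the least scatter. Of 15 one-carbon and glycine cleavage genes, 5 rose and 1 fell by edgeR, 5 and 3 by DESeq2, and 7 had negative values, with a median of 0.10. All 3 glycine-specific subunits of glycine decarboxylase were called, GCV1 at 164, 186 and 162 CPM against 44.7, 56.7 and 37.4 CPM (log2 1.90, SE 0.16, adjusted p = 0.00218), GCV2 (1.60) and GCV3 (1.39). So were SHM2, the cytosolic serine hydroxymethyltransferase (1.30), and MTD1, a cytosolic methylenetetrahydrofolate dehydrogenase (1.58), whereas SHM1, the mitochondrial isozyme of SHM2, differed by -0.12 (adjusted p = 0.607) and MET13 fell (-0.78). Each of the 5 higher calls held in all 6 fits with 1 library left out. ADE17, which carries out the last steps of purine synthesis, stood at 349, 361 and 379 CPM against 34.9, 74.0 and 35.8 CPM (2.93, SE 0.30, adjusted p = 0.00490). Control replicate 2 was the highest of the control libraries and lay far below PSD1_OE. Of 16 purine genes 7 rose, ADE1 (1.26), ADE13 (0.97), ADE12 (0.87), ADE4 (0.81) and ADE2 (0.69) among them, and the median was 0.41. With 1 library left out the number that rose was 3 without MSS116_1-53_OE replicate 1 or PSD1_OE replicate 1 or 2, 4 without PSD1_OE replicate 3, and 8 and 6 without MSS116_1-53_OE replicates 2 and 3.

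Amino acid and nitrogen genes were mixed. Of 48 Gcn4 targets 3 rose and 9 fell. The number that fell was 18 and 3 without MSS116_1-53_OE replicates 2 and 3, 3 without PSD1_OE replicate 3, and 0 without MSS116_1-53_OE replicate 1 or PSD1_OE replicate 1 or 2, with 14 or 15 lower at an unadjusted p of 0.05. SNZ1 (log2 1.69) and SNO1 (1.07), divergent neighbours of vitamin B6 synthesis, and LYS9 (0.90) rose, and the arginine genes ARG3 (-1.17) and ARG56 (-0.94) fell. The calls of SNZ1 and ARG3 each held in 1 of the 6 fits with 1 library left out, that without MSS116_1-53_OE replicate 2, and their highest adjusted p values in those fits were 0.169 and 0.116. PUT1, proline dehydrogenase of the mitochondrion, stood at 435, 607 and 441 CPM against 168, 211 and 146 CPM (1.52, SE 0.19, adjusted p = 0.00825), and PUT2, the next enzyme, rose by 0.95. The PUT1 call was lost without MSS116_1-53_OE replicate 1, at an adjusted p of 0.0578. UGA1 (1.17) and DAL80, a repressor of nitrogen genes (1.59), were called too, and the other 13 of 17 nitrogen catabolite genes did not pass. The UGA1 and DAL80 calls each held in 1 of the 6 fits, that without MSS116_1-53_OE replicate 2. Nitrogen genes that rose numbered 0 to 6 in the left-out fits, the 0 without MSS116_1-53_OE replicate 1, where 6 were higher at an unadjusted p of 0.05. Daughter-specific cell separation genes gave 5 of 10 higher (1 to 5 with 1 library left out, the fewest without PSD1_OE replicate 2), including the glucanase genes DSE4, at 344, 385 and 399 CPM against 162, 167 and 158 CPM (1.23, SE 0.09), and SCW11 (1.04).

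Reductases and genes of uncertain role filled out the list. ARI1, an NADPH-dependent carbonyl reductase, stood at 97.7, 97.1 and 88.9 CPM against 28.9, 25.6 and 15.7 CPM (log2 2.03, SE 0.21, adjusted p = 0.00490). NCA3, a SUN family gene, rose by 2.16 and its call held in all 6 fits. PAI3, the inhibitor of the vacuolar proteinase A, stood at 83.2, 82.1 and 46.9 CPM against 10.6, 27.1 and 7.3 CPM (2.26, SE 0.49, adjusted p = 0.0433), and its call held in 1 of the 6 fits, that without MSS116_1-53_OE replicate 2. YNL277W-A, of unknown function, rose by 2.61 from under 0.5 CPM, RTS3 by 2.04 and YHR140W by 1.91. Calls of these genes held in 3, 2 and 1 of the 6 fits. ATG40, an ER-phagy receptor gene that lies next to PDR5 in divergent orientation with 1551 bases between them, ranged from 38.6 to 44.1 CPM against 11.4 to 17.3 CPM (1.55, SE 0.16). IMA3 and IMA4, isomaltases with near-identical sequence, had nearly the same values (1.17 and 1.17), and their reads may not be separable. The same caution applies to the pairs HSP32 and HSP33 (2.25 and 2.40), RUF5-1 and RUF5-2, and YIL171W-A and YJL220W (2.13 and 1.86). How reads were shared within these pairs was not tested. GPP2, one of the glycerol-1-phosphatases of glycerol synthesis, stood at 362, 371 and 327 CPM against 167, 106 and 69.8 CPM (log2 1.65, SE 0.29, adjusted p = 0.0218), and its isozyme GPP1 rose by 1.07. The GPP2 call was lost without any one of the PSD1_OE libraries, with an adjusted p of at most 0.0972. THI7, the thiamine transporter, stood at 182, 178 and 146 CPM against 79.3, 78.5 and 72.1 CPM (1.15, SE 0.11), with no overlap, and its call held in all 6 fits. SDH9, a minor isozyme of SDH1, rose by 1.53 where SDH1 fell by 0.84, and its call held in 1 of the 6 fits, that without MSS116_1-53_OE replicate 2. TRX3, the mitochondrial thioredoxin (1.01), VID24, of the ubiquitin ligase that degrades gluconeogenic enzymes (1.49), PFK27, a 6-phosphofructo-2-kinase (1.03), and PMA2, a minor proton pump (1.51), were called too. In that order, their calls held in 2, 3, 1 and 2 of the 6 fits. OYE3 (0.97) and OYE2 (0.70), old yellow enzymes, were the 2 of 25 peroxide and superoxide defence genes that passed with all libraries, against 6 higher and 2 lower by DESeq2. By edgeR 4.2% of all genes tested were higher. Without MSS116_1-53_OE replicate 2 that list gave 10 higher and 1 lower, and without any other single library it gave 0, with 5 to 8 higher at an unadjusted p of 0.05. SSA1 was the one gene of 19 on the list of the ER unfolded protein response to pass, by edgeR and by DESeq2. It encodes a cytosolic Hsp70 and was already counted among the cytosolic chaperones, so no other gene of that list passed. SSA1 did not pass without PSD1_OE replicate 1, 2 or 3 or MSS116_1-53_OE replicate 1. Among 30 iron uptake genes 0 passed by edgeR, with 5 higher and 1 lower at an unadjusted p of 0.05 and 1 each way by DESeq2. Among 18 trehalose and glycogen genes 0 passed by either tool or at an unadjusted p of 0.05 with all libraries. Without MSS116_1-53_OE replicate 2, the iron genes gave 3 higher and 1 lower and the trehalose and glycogen genes 11 higher, with a median of 0.57 in place of 0.13.

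Further genes called lower included YDR133C, an unannotated reading frame, at 255, 257 and 304 CPM against 733, 612 and 815 CPM (log2 -1.39, SE 0.14, adjusted p = 0.00490), the one lower call held in all 6 fits with 1 library left out. YML089C (-1.79) had little signal in any library, 0.38 to 0.57 CPM against 1.6 to 2.1 CPM. SPS4 (-1.25), YGR067C (-1.19), YML090W (-1.03) and YIG1 (-1.02) completed them. The annotation did not match 6 of the 81 higher calls and 3 of the 14 lower. The paper left dubious reading frames out of its heatmap of upregulated genes, whereas none were left out here. URA3, the marker of both constructs, was lower at 7243, 8118 and 8152 CPM against 17570, 16220 and 21080 CPM (-1.21, SE 0.14), and its counts include the construct copies. Near chromosome ends, within 30 kb, lay 9 of the 75 placed genes called higher, and 1 of the 11 called lower, against 6.34% of all tested.

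The levels of the other groups are given as values, with no test. A comparison of any of them with MSS116_1-53_OE would share its 3 libraries. CIS1 averaged 177 ± 10.04 CPM (SD, n = 3) in PSD1_OE, 1.2 ± 0.43 in the control, 1.7 ± 0.38 in PSD1_OE_pdr3_KO, 138 ± 11.2 in MTSMGE1_OE and 0.81 ± 0.48 in MTSMGE1_OE_pdr3_KO. PDR5 averaged 3453 ± 229, 181 ± 12.3, 172 ± 7.1, 4811 ± 314 and 177 ± 9.9 CPM in the same order. CIS1 and PDR5 were thus high in the 2 groups that have PDR3 and a PSD1 or MGE1 construct. PDR3 itself averaged 0 CPM in PSD1_OE_pdr3_KO and 0.062 CPM in MTSMGE1_OE_pdr3_KO. HSP82 followed the construct instead, at 1829 ± 375 CPM in PSD1_OE and 1894 ± 65.9 in PSD1_OE_pdr3_KO, against 495 ± 210 in the control, 634 ± 273 in MTSMGE1_OE and 585 ± 252 in MTSMGE1_OE_pdr3_KO. HSP60 did likewise, at 3548 ± 151 and 3747 ± 193 CPM with Psd1 and 1865 ± 44.0, 1833 ± 57.8 and 1946 ± 80.9 CPM in the same 3 groups. GCV1 averaged 171 ± 13.1 and 132 ± 19.98 CPM with Psd1 and 46.3 ± 9.7, 61.5 ± 4.3 and 70.2 ± 23.8 CPM without it. ATP2 averaged 1923 ± 72.1 and 1885 ± 40.3 CPM with Psd1, 3382 ± 104 CPM in the control and 2496 ± 39.1 and 2302 ± 49.8 CPM in the MGE1 groups, so the control was the highest of the 5. SCS7 stood with the PDR genes, at 444 ± 27.6 CPM in PSD1_OE and 182 ± 9.9 in PSD1_OE_pdr3_KO.

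**Figure D5:**
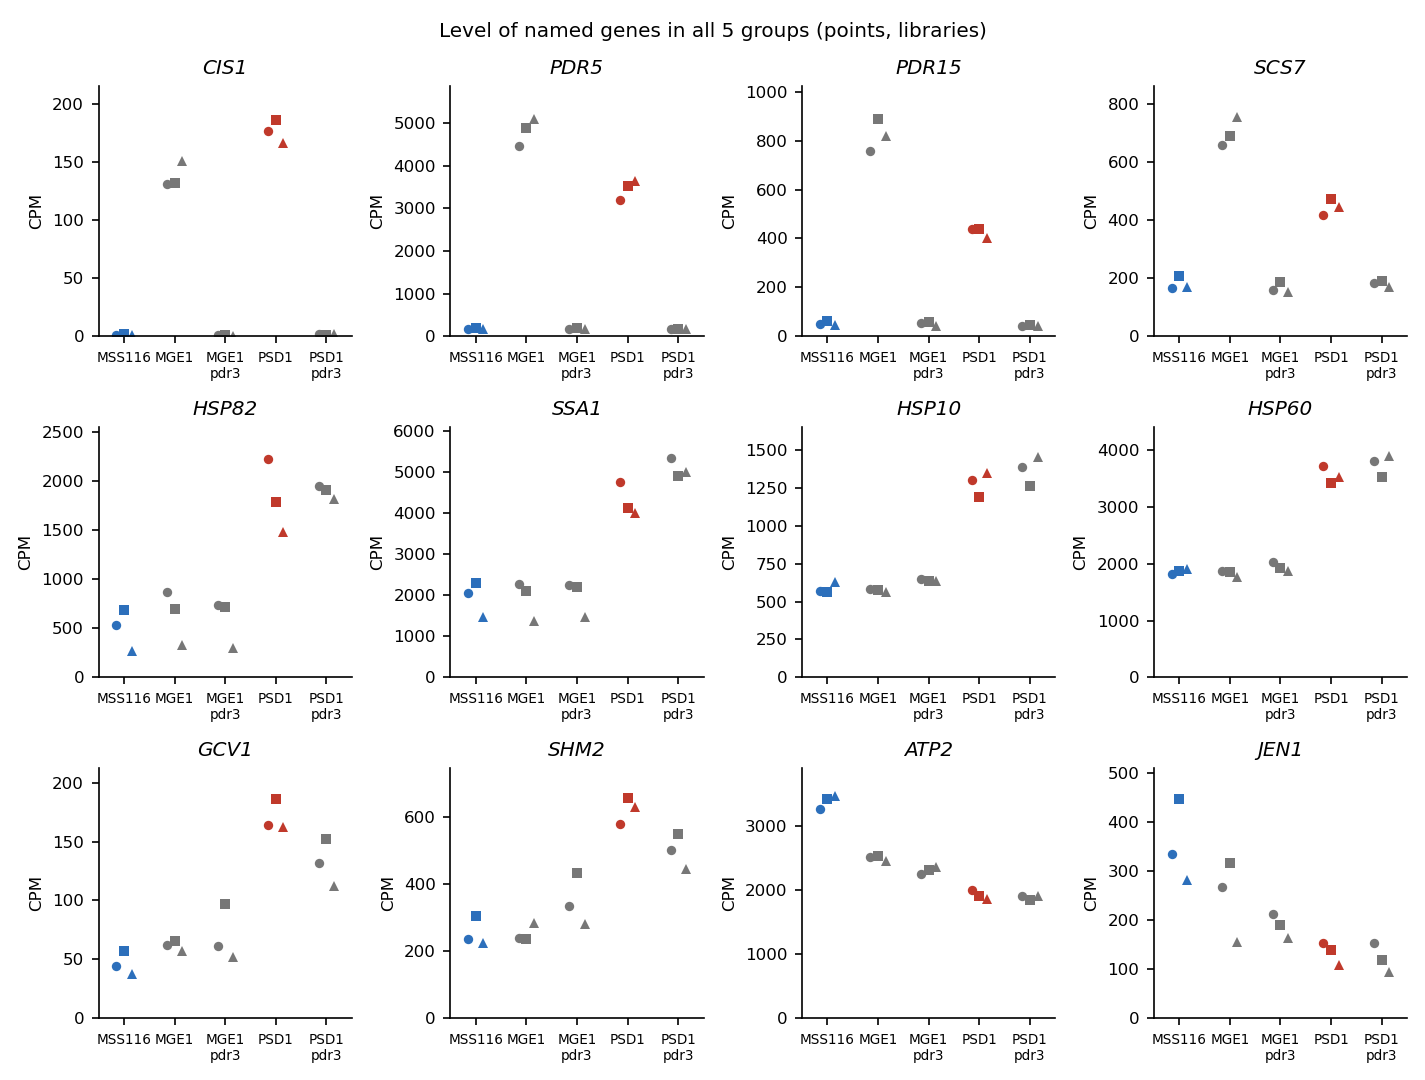
Level of selected genes in the 5 groups, in CPM on linear axes from 0, with circles, squares and triangles for replicates 1, 2 and 3 of each group, named by construct and by pdr3 deletion. CIS1 and PDR5 are high in PSD1_OE and MTSMGE1_OE, HSP82 and HSP60 in both PSD1 groups, and ATP2 is highest in MSS116_1-53_OE.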

How the data were processed

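Libraries were prepared by the authors with a stranded mRNA kit, sequenced as paired reads, aligned to R64-1-1 with DRAGEN and counted with featureCounts. The deposited table holds raw counts per gene without normalization. How overlapping genes, multi-mapping reads and strand were set in the counting is not given in the sources used here, so values of overlapping and near-identical genes are uncertain. Labels and methods name different media (rich and synthetic).

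From the counts, PSD1_OE and MSS116_1-53_OE were compared by the quasi-likelihood test of edgeR 4.0.16 (run in R 4.3.3), after TMM scaling and filterByExpr, with Benjamini-Hochberg adjustment over 6166 genes. PSD1 and MSS116 stayed in the library totals and were not tested. A call needed an adjusted p of 0.05 or less and a log2 change of at least 1. The p-values set the difference between the groups against the spread of libraries within them, an estimate shared in part across genes. They cover these 6 libraries only. SE was derived from the F statistic. CPM used TMM factors over all 15 libraries. Names, positions and upstream sequences came from the RefSeq annotation of R64, which matched 6047 of 7127 identifiers. The genes to name were the 20 called in each direction with the largest change, the called members of each gene list and up to 4 more per list with the smallest adjusted p, though not all of them are named. Other genes were named after their values were seen, ATG40, DSE4, IMA3, THI7, PDR1, SHM1, HSF1, MGE1, HSP78 and HSP26 among them. The groups, gene lists and tests were chosen with earlier results of these data known, and 7 lists after the values were seen. Alternatives were other scalings, filters and DESeq2 1.42.0, a fit of all 5 groups, a 2-fold null in place of no change, a replicate block and leaving out each library. The fit was tested on simulated data. Figures used matplotlib 3.10.9 in Python 3.11.15.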

Additional observations from a re-analysis of the deposited data

How the results depend on the processing

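The 81 genes called higher became 9 and the 14 called lower became 0 when edgeR tested against a 2-fold change, and 259 and 117 with the adjusted p alone. The lower calls numbered 26 by DESeq2 and 23 with all 5 groups in one fit. Leaving out 1 library gave 29 to 209 higher and 2 to 28 lower calls. The most came without MSS116_1-53_OE replicate 2 and the fewest without PSD1_OE replicate 2. RLE size factors, library size, no filter, a minimum of 10 counts in every library, DESeq2 and the fit of 5 groups gave 73 to 112 higher calls. All 81 and 14 kept their direction in every fit, and 28 and 1 were called in all 13 settings other than the 2-fold test. The cause of these shifts was not tested, beyond fewer libraries in the left-out fits.

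With the replicate block, 125 genes were called higher and 20 lower, all 81 and 14 included, and 513 and 350 passed the adjusted p alone. With it 110 of 138 cytosolic ribosomal protein genes were lower and 12 of 26 general stress genes higher, and HSP26, HSP78 and NDE2 were called. Of 22 cytosolic chaperone genes 19 were higher, and of 67 mitochondrial ribosomal protein genes 31. Of 41 oxidative phosphorylation genes 36 were lower and 1 higher. Deviations from the group means correlated between libraries of the same number at 0.086, 0.476 and 0.611, and PSD1_OE replicate 1 correlated best with MSS116_1-53_OE replicate 2 (0.174). Libraries of unlike number correlated at -0.588 to 0.221. In every group the summed cytosolic ribosomal protein transcripts were lowest in replicate 2 and highest in replicate 3. The summed general stress transcripts were lowest in replicate 3 of every group. The paper's methods name no block, and the same-number values were not all clear of the others. The main test therefore did not take the numbers as pairs. Any spread that the replicates share therefore stayed in the main test. Precision was limited by 3 libraries per group, and genes under 10 CPM, 8 of the 81, rest on few reads.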
